A study of Mus musculus with 8 samples.

Results

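The genes described here encode the class I molecules of the mouse major histocompatibility complex (MHC) and 5 of their partners. They are the rows of a deposited expression table whose symbol begins with H2-K1, H2-K2, H2-D1, H2-L, or H2-Q, H2-T or H2-M followed by a digit, or with H2-Bl, of any biotype, together with B2m, Tap1, Tap2, Tapbp and Nlrc5. The rule found 36 genes of the 55487 in the table, 31 H2 genes and the 5 partners. Of the 36, 34 lie on chromosome 17, B2m lies on chromosome 2 and Nlrc5 on chromosome 8, and 29 are annotated as protein coding.

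RNA was measured in 8 libraries of splenic regulatory T cells (Tregs, the CD4 T cells that restrain immune responses), made to compare the transcriptomes of SRC-3 knockout and control Tregs. The libraries form 4 groups of 2. WT YFP+ holds the libraries numbered 23 and 24, from YFP+ Tregs with the genotype WT Control on the C57BL/6 strain. KO YFP+ and KO YFP- each hold libraries numbered 84 and 85, from YFP+ and YFP- Tregs of SRC-3 KO mice whose strain label is C57BL/6 and 129SvEv mixed. SRC-3ff holds libraries 68 and 72, whose genotype is WT Control 2, whose strain is 129SvEv, whose cell type label is Tregs and names no YFP sort, and whose title reads SRC_3ff. What YFP marks is not in the labels, nor is the promoter that drives it, the deleted part of the gene, or whether a number stands for an animal. Each control differs from the knockout in strain, and SRC-3ff also differs in sort from both YFP+ groups. Strain and genotype therefore cannot be told apart in any comparison of a knockout group with a control. KO YFP+ and WT YFP+ share the YFP+ sort, and in every other comparison the sort label differs too. Between the 2 controls, strain, genotype label and sort label all differ. KO YFP+ and KO YFP- share the strain label and the numbers 84 and 85.

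Class I molecules display peptides from inside the cell to CD8 T cells and to receptors of natural killer (NK) cells. A heavy chain, encoded by the classical genes H2-K1 and H2-D1 or by the class Ib genes of the Q, T and M regions, pairs with beta-2 microglobulin, the product of B2m. Peptides reach the heavy chain through the TAP transporter (Tap1 and Tap2) with the help of tapasin (Tapbp), and Nlrc5 is the transactivator that binds class I promoters with other factors. The heavy-chain genes are among the most variable genes between mouse strains, and the copies within a region resemble each other closely.

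Classical class I promoters are known to carry a kappa B site, an interferon-stimulated response element and a set of W/S, X and Y boxes, so the 250 bases before the annotated start are shown for 4 members that differ in what follows. They come from RefSeq (GRCm38.p6, the C57BL/6J reference); the 129SvEv sequence was not used here. Capitals mark matches, on either strand, to 4 short motifs: an IRF core (AANNGAAA), a kappa B core (GGATTNCC), a CRE half-site of the X box (TGACG) and a Y box core (ATTGG). H2-K1 is a classical gene whose control libraries overlapped, H2-Q4 and H2-Q2 are Q genes that were high in WT YFP+, and H2-Q7 is a Q gene that was low there; for H2-Q2 only the part before the GENCODE M21 start is shown, and the annotated antisense gene Gm11131 overlaps the H2-Q4 window.
H2-K1 (chr17:34000348-34000597, minus strand): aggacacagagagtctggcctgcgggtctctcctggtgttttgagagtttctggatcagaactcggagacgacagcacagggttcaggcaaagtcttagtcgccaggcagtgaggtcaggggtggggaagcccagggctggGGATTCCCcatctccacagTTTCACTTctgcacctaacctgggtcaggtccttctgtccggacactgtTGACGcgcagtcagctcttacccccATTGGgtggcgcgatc
H2-Q4 (chr17:35379367-35379616, plus strand): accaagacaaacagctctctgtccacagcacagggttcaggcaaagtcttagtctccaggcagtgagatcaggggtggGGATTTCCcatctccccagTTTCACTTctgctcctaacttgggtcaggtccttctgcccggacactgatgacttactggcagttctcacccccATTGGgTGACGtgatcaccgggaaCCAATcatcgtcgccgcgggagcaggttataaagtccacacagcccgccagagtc
H2-Q7 (chr17:35438905-35439154, plus strand): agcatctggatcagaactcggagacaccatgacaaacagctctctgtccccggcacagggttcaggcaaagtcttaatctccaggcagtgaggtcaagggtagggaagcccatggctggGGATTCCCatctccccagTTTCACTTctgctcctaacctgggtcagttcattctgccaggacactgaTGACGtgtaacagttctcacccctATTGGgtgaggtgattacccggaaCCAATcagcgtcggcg
H2-Q2 (chr17:35342057-35342241, plus strand): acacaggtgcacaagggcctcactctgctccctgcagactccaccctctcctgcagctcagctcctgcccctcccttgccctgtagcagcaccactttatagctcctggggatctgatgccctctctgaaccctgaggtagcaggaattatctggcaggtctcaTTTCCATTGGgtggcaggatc

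H2-K1, H2-D1, H2-Q4 and H2-Q7 held all 4 motifs in this window. Each was in 1 copy apart from 2 matches of the Y box core in H2-D1, H2-Q4 and H2-Q7. In H2-Q4 the TGACG at -73 came after the first Y box core at -79. In H2-K1, H2-D1 and H2-Q7 the TGACG came before the first Y box core, at -41, -101 and -64. The TGACG of H2-Q4 was therefore not placed like the other matches. The H2-D1 window, which is not shown, lies wholly in GENCODE exons after the GENCODE start, and 136 of the 250 bases of the H2-T3 window lie in exons. All of the Tap1 window, 244 bases of the Tapbp window and 154 of the H2-T23 window lie in exons as well. H2-Q6 held 3 of the 4 and had no TGACG. In H2-Q2 the IRF core at -86 and the Y box core at -81 overlapped, and neither of the other motifs was in the window. H2-Q10 and H2-T3 held an IRF core alone, at -155 and -126. A promoter entry existed for 25 of the 36 members, of which 15 held the IRF core, 6 the kappa B core, 13 the CRE half-site and 22 the Y box core. Among 32851 promoters of the same length the shares were 21.3%, 2.54%, 17.8% and 33.8%. The 4 motifs stand for sites already known in class I promoters, and copies within a region resemble each other. A higher share in the members is therefore no test of the motifs. Whether these matches bear on the levels of the genes was not tested.

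**Figure D1:**
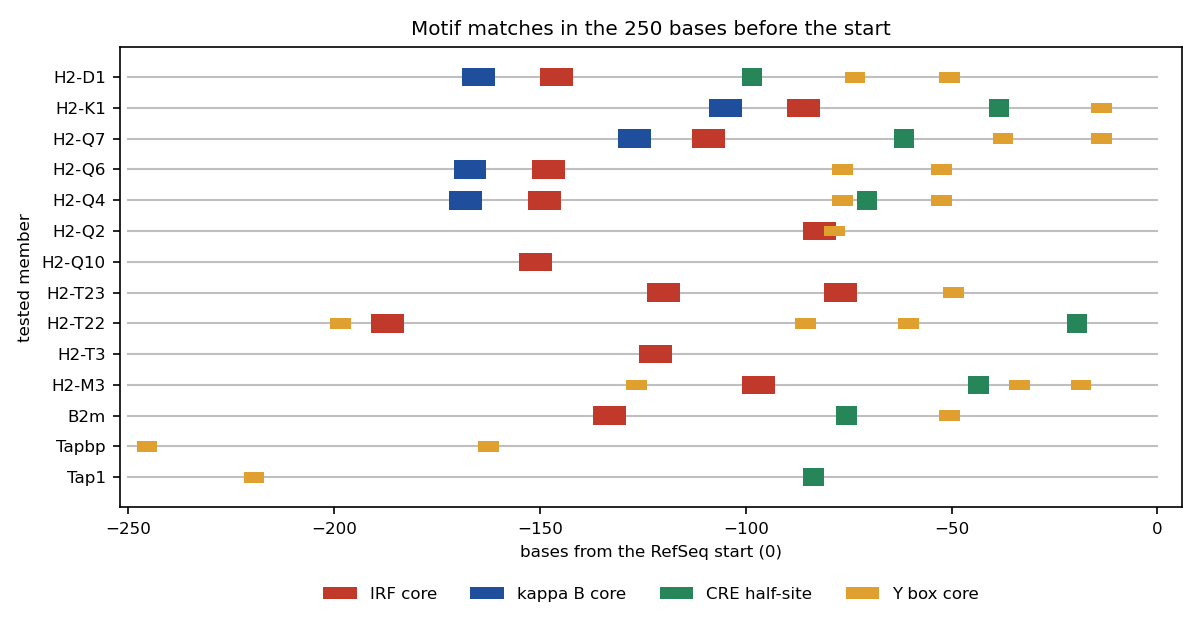
Matches to 4 motifs in the 250 bases before the RefSeq start of 14 tested members. The x axis gives bases from the start, and each block is 1 match as long as its motif. H2-D1, H2-K1, H2-Q7 and H2-Q4 hold all 4 motifs, and H2-Q10, H2-T3 and Tapbp hold 1. In H2-Q4 the CRE half-site follows the first Y box core. The H2-D1 and Tap1 windows lie wholly in GENCODE exons, as do 244 of the 250 bases for Tapbp.

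Expression is given in FPKM (fragments scaled to transcript length and to the mapped total), so levels of different genes are compared per length. FPKM summed to between 384107 and 416393 in a library, and the depth behind the values is unknown. Ncoa3, the gene of SRC-3, measured 46.3 and 42.7 FPKM in WT YFP+, 10.9 and 10.2 in KO YFP+, 32.1 and 32.2 in KO YFP-, against 49.7 and 35.4 in SRC-3ff. The libraries labelled KO YFP- thus did not show the low level of KO YFP+, and the name follows the label. A value for the whole gene cannot show the loss of single exons. Foxp3, the defining Treg transcription factor, lay between 19.9 and 31 FPKM in both YFP+ groups and between 113 and 205 in the others. Il2ra, another Treg marker, went the other way in KO YFP-. It was lowest there, at 43.5 and 42.8 FPKM, where the YFP+ groups ran from 92.4 to 112.7. The SRC-3ff libraries, at 106.9 and 83.1 FPKM, lay above and below those of KO YFP+. For the Treg markers Ctla4 and Ikzf2, the YFP+ groups overlapped the others. Cd3e was at least 216 FPKM and Cd4 at least 139.5 in all 8 libraries. Markers of other cells differed with the sort. The summed NK and CD8 list (6 genes) ran from 39.0 to 65.2 FPKM in the YFP+ groups and from 122 to 412 in the others, with Ncr1 at 0 in both YFP+ groups. Nkg7, Klrk1, Klrb1c and Ncr1 carried that difference, whereas Cd8b1 ran from 7.57 to 12.2 FPKM in the YFP+ groups and from 4.12 to 5.72 in the others, and Cd8a stayed at or under 0.283. The summed B cell list (6 genes) ran from 15.3 to 25.2 and from 56.3 to 155, with Pax5 at or under 0.00764 throughout and at 0 in both YFP+ groups. The plasma cell list (4 genes) ran from 88.4 to 127 and from 346 to 938, and the myeloid list (6 genes) from 0.766 to 1.99 and from 3.92 to 6.66. In bulk RNA, fewer cells of a type and less RNA per cell cannot be told apart.

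Of the 36 members, 23 reached 1 FPKM in at least 2 libraries and were tested among 14134 genes; the other 13 all belong to the M region and are described there. H2-T3 reached 1 FPKM in 3 libraries, both of WT YFP+ and KO YFP+ 84, so it was tested only through the group where it is high. Differences were tested with limma on log2(FPKM + 1), which understates the fold change of low genes, and adjusted by the Benjamini-Hochberg method over all genes tested, with a threshold of 0.05. Errors after ± are standard errors from limma. The labels do not state that each library came from another animal, and a p-value therefore measures only the spread between these libraries, which may be technical. With 2 libraries a side, the smallest p of an exact permutation test is 0.333, and limma reaches lower values because it pools the spread over genes and groups.

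Between the 2 control groups, H2-Q4, H2-Q2, H2-T3, H2-Q10, H2-Q1, H2-Bl, H2-K2, H2-T24 and H2-D1 were higher in WT YFP+ than in SRC-3ff, and 0 members were lower, so 9 of 23 passed where 9.22% of all tested genes did. The log2 fold changes of these 9 ran from 0.76 (H2-D1 and H2-T24) to 2.35 (H2-Q4), and the median of the 23 tested members was 0.53 where that of all genes tested was -0.025. Against the mean of the 3 groups with 129SvEv in their strain label, WT YFP+ was higher in H2-Q2, H2-Q4, H2-T3, H2-Q10, H2-Bl, H2-Q1 and H2-D1 and lower in H2-T23 and H2-Q7, 9 of 23 members where 5.97% of genes passed. H2-T3, which the filter let in by its level in WT YFP+, is in these counts, and without it 8 of 22 members passed in each of the 2 comparisons. The calls of H2-Q1, H2-Q2 and H2-Q4 against the mean held in every alternative run, and those of H2-Q10, H2-Bl, H2-D1, H2-T23 and H2-Q7 were each lost without at least 1 WT YFP+ library. The highest limma adjusted p with a library left out was 0.156, for H2-Q10.

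Both knockout sorts differed from WT YFP+ in both directions. KO YFP+ was lower in H2-Q2, H2-T3, H2-Q4 and H2-Q1 and higher in H2-Q7, 5 of 23 members where 0.757% of all tested genes passed. KO YFP- was lower in H2-Q2, H2-T3, H2-Q4, H2-Bl, H2-Q1 and H2-D1 and higher in H2-Q7, H2-Q6 and H2-T23, 9 of 23 where 9.27% passed. Without H2-T3 these counts are 4 and 8 of 22. Against SRC-3ff, KO YFP+ was higher in H2-K2, H2-Q4, H2-T22, H2-Q7, Tap1 and H2-Q1 and lower in none, 6 of 23 where 10.2% passed. These comparisons share their control or knockout libraries, so their calls are not independent of each other.

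No member passed between the 2 knockout sorts. In KO YFP+ against KO YFP-, the comparison within a strain label, 0 of 23 members passed with limma where 4.9% of all tested genes did, and 2 of them (H2-T10 and H2-T22) had an unadjusted p below 0.05, as did 18.8% of all tested genes. The members' log2 fold changes ran from -0.85 (H2-Q5) to 0.65 (H2-T10). In KO YFP- against SRC-3ff, 0 of 23 passed where 0.644% of genes did, while 11 had an unadjusted p below 0.05, as did 18.3% of all tested genes. With 23 members, a count of 0 cannot be told apart from a share of 4.9% or of 0.644%. The smallest adjusted p there was that of H2-Q4 (log2 fold change 0.75 ± 0.12, limma adjusted p = 0.054). Without KO YFP- 84, 2 members passed in each of these comparisons, and in KO YFP+ against KO YFP- they were H2-Q5 and H2-Q10, whose values in KO YFP- 85 are given below.

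**Figure D2:**
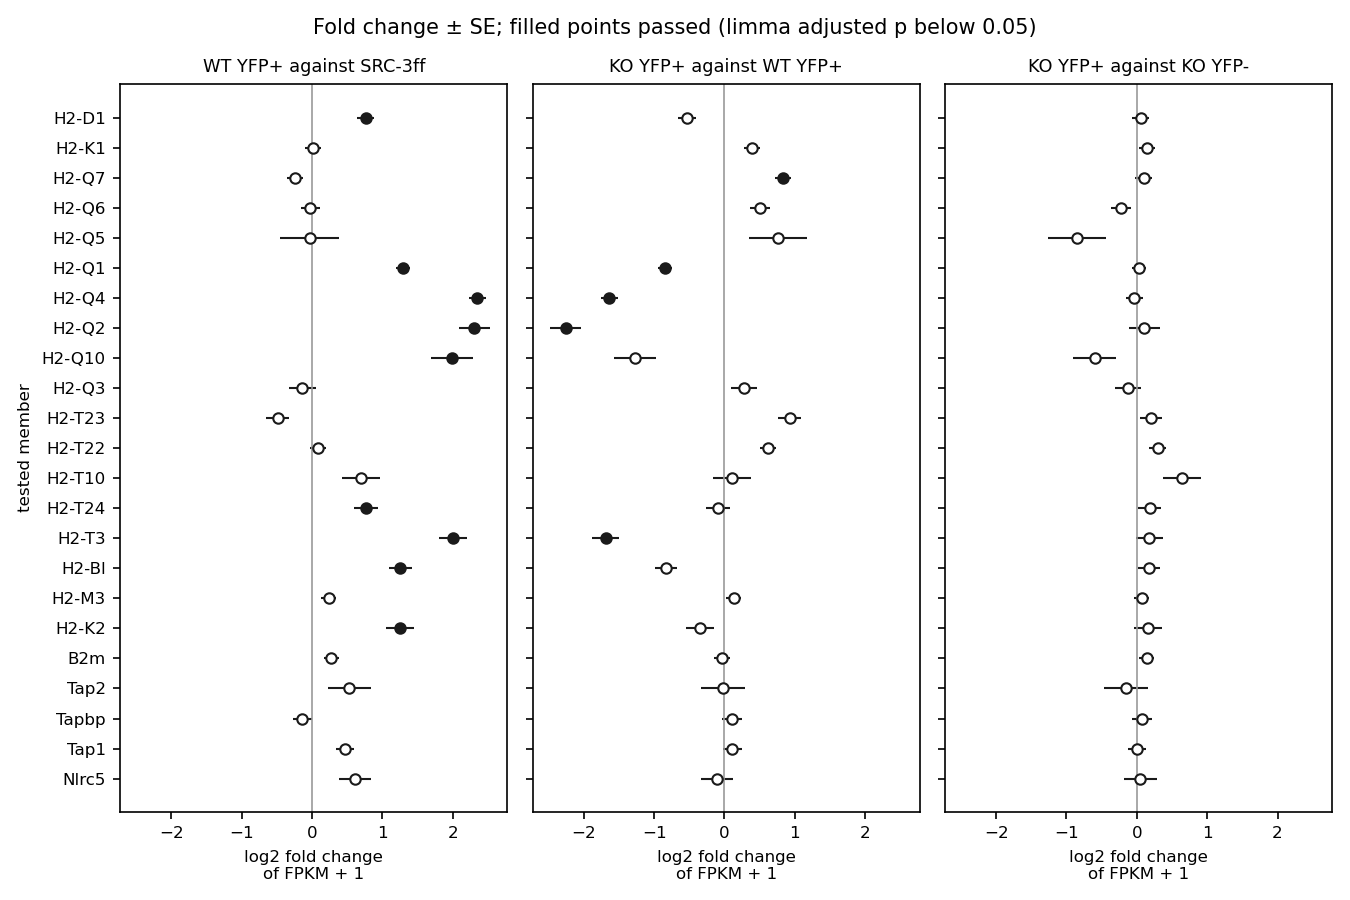
Log2 fold change of FPKM + 1 (x axis) of the 23 tested members in 3 comparisons, with limma's standard error as the bar and filled points for an adjusted p below 0.05. The left panel has 9 filled points, all above 0, the middle panel 4 below 0 and 1 above, and the right panel none.

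H2-D1 and H2-K1, the classical heavy chains, were the 2 most abundant class I transcripts, and only H2-D1 passed in any comparison. H2-D1 (ENSMUSG00000073411, chromosome 17, 35262730 to 35267499, GRCm38) measured 4238 and 4906 FPKM in WT YFP+, 3067 and 3247 in KO YFP+, 3090.4 and 2991 in KO YFP-, against 2723 and 2663 in SRC-3ff. Both WT YFP+ libraries lay above the other 6, and the SRC-3ff libraries were the lowest. H2-D1 was higher in WT YFP+ than in SRC-3ff (log2 fold change 0.76 ± 0.12, limma adjusted p = 0.0135) and lower than in WT YFP+ in KO YFP- (-0.59 ± 0.12, adjusted p = 0.0313). In KO YFP+ against WT YFP+ the value was -0.53 ± 0.12 and did not pass (limma adjusted p = 0.186). The call between the controls was lost without WT YFP+ 24 (limma adjusted p = 0.0523), without SRC-3ff 72 (0.0856), without a filter on low values (0.267) and with only the 2 groups compared (0.0978), and that of KO YFP- was lost without WT YFP+ 24, without either library of KO YFP+, KO YFP- or SRC-3ff, and in 3 other alternatives (highest 0.417).

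H2-K1 (ENSMUSG00000061232, chromosome 17, 33996017 to 34000347, GRCm38) went the other way. Its level was 2419.6 and 2512 FPKM in WT YFP+, 3142 and 3342 in KO YFP+, 2894 and 2959 in KO YFP-, against 2550.2 and 2333 in SRC-3ff. The 4 knockout libraries lay above the 4 control libraries, and the controls overlapped. KO YFP+ exceeded WT YFP+ by 0.39 ± 0.11 on the log2 scale (limma adjusted p = 0.292) and SRC-3ff by 0.41 ± 0.11 (0.0644), and neither difference passed. With the opposite order of the genes, the ratio of H2-D1 to H2-K1 was 1.75 and 1.95 in the WT YFP+ libraries and lay between 0.972 and 1.14 in the other 6. The ratio is a level within a library, and it separated WT YFP+ from every other library.

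**Figure D3:**
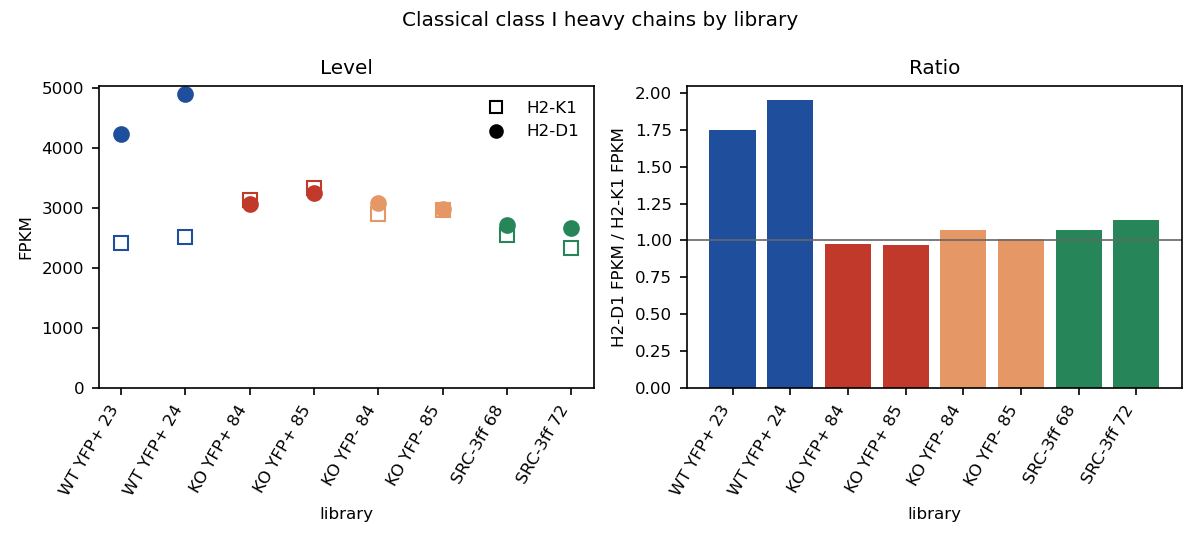
FPKM of H2-K1 (open squares) and H2-D1 (filled circles) in each library on the left, and the ratio of H2-D1 to H2-K1 on the right. The ratio is 1.75 and 1.95 in WT YFP+ and 0.972 to 1.14 in the other libraries.

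B2m, the light chain (ENSMUSG00000060802, chromosome 2, 122147686 to 122153083) measured 2658 and 2848 FPKM in WT YFP+, 2609 and 2769.7 in KO YFP+, 2413 and 2468 in KO YFP-, against 2339 and 2213 in SRC-3ff. The YFP+ groups overlapped each other and lay above the groups with no YFP+ sort, and no comparison passed. Between the controls the log2 fold change was 0.27 ± 0.11 (limma adjusted p = 0.17), and it passed with quantile normalization alone (0.45, adjusted p = 0.0349). The ratio of B2m to the summed heavy chains lay between 0.302 and 0.35 in all 8 libraries.

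Tap1, a subunit of the peptide transporter, was lowest in SRC-3ff. Tap1 measured 81.1 and 83.4 FPKM in WT YFP+, 94.2 and 83.9 in KO YFP+, 101 and 78.5 in KO YFP-, against 61.4 and 57.2 in SRC-3ff. It was higher in KO YFP+ than in SRC-3ff (log2 fold change 0.58 ± 0.13, limma adjusted p = 0.0397), a call lost in 9 of the 16 alternatives, among them without either SRC-3ff library (highest 0.194) and without either library of KO YFP+ or WT YFP+. Tap2, the other subunit, measured 118 and 196 FPKM in WT YFP+, 195 and 116 in KO YFP+, 169 and 166 in KO YFP-, against 120.3 and 92.0 in SRC-3ff. The 2 libraries of each YFP+ group lay far apart for Tap2, and their ranges were nearly the same.

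Tapbp, which encodes tapasin, stayed between 78.7 and 103 FPKM, with SRC-3ff 72 the highest library. Nlrc5, the class I transactivator, measured 27.6 and 21.6 FPKM in WT YFP+, 25.6 and 19.9 in KO YFP+, 22.4 and 21.2 in KO YFP-, against 19.7 and 12.4 in SRC-3ff. SRC-3ff held the lowest library, and the other 3 groups overlapped. The log2 fold change of Nlrc5 between the controls was 0.61 ± 0.23 and did not pass (limma adjusted p = 0.153). Tap2, Tapbp, Nlrc5 and B2m did not pass with limma in any of the 7 comparisons. Among the 5 partner genes 0 had an unadjusted p below 0.05 in either knockout sort against WT YFP+. Of all tested genes, 10.4% did in KO YFP+ and 23.5% in KO YFP-. With 5 genes, a count of 0 cannot be told apart from those shares.

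**Figure D4:**
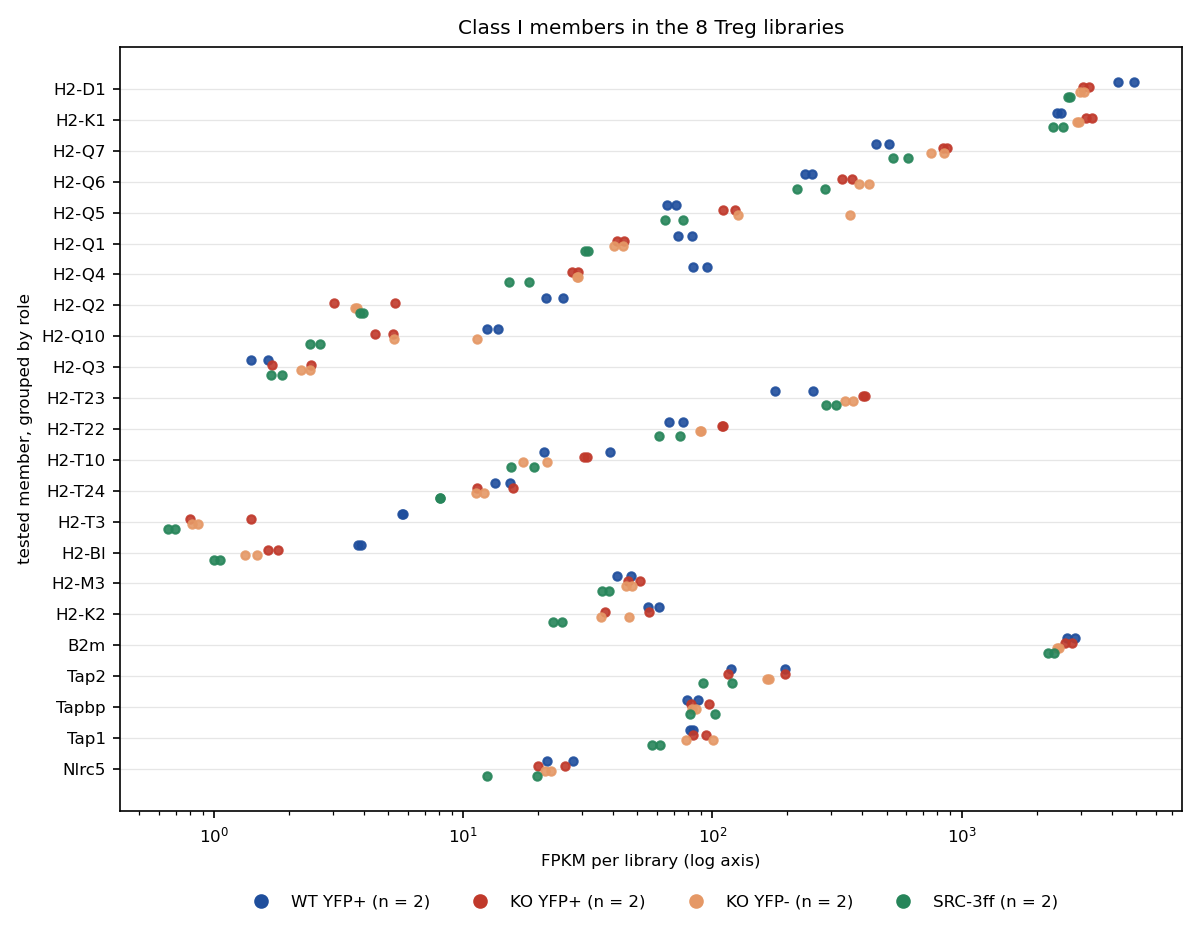
FPKM of the 23 tested members on a log axis, with 1 point per library in 4 colours and members grouped by role. H2-D1, H2-K1 and B2m have the highest levels, and the WT YFP+ points stand to the right of all others for H2-Q4, H2-Q2, H2-Q1, H2-Q10, H2-T3, H2-Bl and H2-D1.

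Within the Q region, both WT YFP+ libraries lay above all others for H2-Q4, H2-Q1, H2-Q2 and H2-Q10. They lay below all others for H2-Q7 and H2-Q3, and overlapped those of SRC-3ff for H2-Q6 and H2-Q5. H2-Q4 (ENSMUSG00000035929, chromosome 17, 35379617 to 35385290) measured 83.6 and 94.9 FPKM in WT YFP+, 28.8 and 27.2 in KO YFP+, 28.7 and 28.8 in KO YFP-, against 18.4 and 15.2 in SRC-3ff. WT YFP+ was the highest group, SRC-3ff the lowest, and the 4 knockout libraries lay between them without overlap. H2-Q4 was higher in WT YFP+ than in SRC-3ff (log2 fold change 2.35 ± 0.12, limma adjusted p = 0.000505), lower than in WT YFP+ in KO YFP+ (-1.64 ± 0.12, adjusted p = 0.00215) and higher in KO YFP+ than in SRC-3ff (0.71 ± 0.12, adjusted p = 0.0174). The calls against WT YFP+ held in every alternative run, in KO YFP+ narrowly with only the 2 groups compared (limma adjusted p = 0.04997). The call of KO YFP+ against SRC-3ff was lost without either KO YFP+ library, without SRC-3ff 72 (limma adjusted p = 0.103, the highest), without a filter on low values (0.054) and with only the 2 groups compared (0.059). The antisense gene Gm11131 covers 19.1% of the exonic bases of H2-Q4, and since the use of strand in counting is not given, their reads cannot be told apart there. Gm11131 itself was listed between 1.76 and 3.86 FPKM.

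H2-Q1 followed the same order as H2-Q4, with smaller steps. Its level was 72.7 and 82.7 FPKM in WT YFP+, 44.0 and 41.5 in KO YFP+, 43.6 and 40.3 in KO YFP-, against 31.7 and 30.7 in SRC-3ff. The knockout sorts overlapped each other and neither control. Between the controls H2-Q1 differed by a log2 fold change of 1.29 ± 0.10 (limma adjusted p = 0.00102), and that of KO YFP- against WT YFP+ was -0.87 ± 0.10 (adjusted p = 0.00387). Both held in every alternative run, whereas the call of KO YFP+ against WT YFP+ (-0.85 ± 0.10, limma adjusted p = 0.0162) was lost without WT YFP+ 24 or either KO YFP+ library (highest 0.136), without a filter and with only the 2 groups compared. The call of KO YFP+ against SRC-3ff (0.44 ± 0.10, limma adjusted p = 0.0381) was lost in 10 of 16 alternatives, among them without either library of any of the 3 groups other than WT YFP+ (highest 0.185).

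H2-Q2 (ENSMUSG00000091705, chromosome 17, 35342242 to 35346762) did not form such steps. Its level was 21.4 and 25.1 FPKM in WT YFP+, 3.04 and 5.33 in KO YFP+, 3.67 and 3.75 in KO YFP-, against 3.95 and 3.84 in SRC-3ff. The other 6 libraries overlapped, all of them far below WT YFP+. Its log2 fold change was 2.30 ± 0.22 between the controls (limma adjusted p = 0.00204), -2.36 ± 0.22 in KO YFP- against WT YFP+ (adjusted p = 0.00185) and -2.26 ± 0.22 in KO YFP+ against WT YFP+ (adjusted p = 0.00734). The first 2 held in every alternative run, and the last was lost without WT YFP+ 24 (limma adjusted p = 0.0637), without a filter (0.0602) and with only the 2 groups compared (0.108).

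H2-Q10, which encodes a secreted class I molecule made mainly in the liver, measured 13.8 and 12.4 FPKM in WT YFP+, 5.22 and 4.42 in KO YFP+, 5.25 and 11.4 in KO YFP-, against 2.65 and 2.43 in SRC-3ff. WT YFP+ lay above all others, and KO YFP- 85 stood apart from its partner. It was higher in WT YFP+ than in SRC-3ff (log2 fold change 1.99 ± 0.30, limma adjusted p = 0.0102), a call lost without WT YFP+ 23, WT YFP+ 24 or SRC-3ff 72 (highest 0.0701) and without a filter (0.0613). H2-Q10 in KO YFP+ against WT YFP+ did not pass (-1.28 ± 0.30, limma adjusted p = 0.186) but did without either KO YFP- library (0.0335 and 0.0362), since those libraries enter the shared spread.

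H2-Q7 and H2-Q6, which encode the Qa-2 antigen, were the most abundant Q genes and were highest in the knockout. H2-Q7 (ENSMUSG00000060550, chromosome 17, 35439155 to 35443773) measured 509.6 and 453 FPKM in WT YFP+, 839 and 872 in KO YFP+, 847 and 756 in KO YFP-, against 610.4 and 532 in SRC-3ff. The 4 knockout libraries lay above both controls, and WT YFP+ was the lowest group. Its difference from SRC-3ff (log2 fold change -0.24 ± 0.12) did not pass (limma adjusted p = 0.242). H2-Q7 was higher than in WT YFP+ in KO YFP+ (log2 fold change 0.83 ± 0.12, limma adjusted p = 0.032) and in KO YFP- (0.73 ± 0.12, adjusted p = 0.012), and higher in KO YFP+ than in SRC-3ff (0.59 ± 0.12, adjusted p = 0.0285). The first call held in 3 of 16 alternatives and was lost with each of the 8 libraries left out in turn (limma adjusted p = 0.0506 to 0.209). The call of KO YFP- was lost without WT YFP+ 24, KO YFP- 84 or a filter (highest 0.0784), and that against SRC-3ff in 6 of 16 alternatives (highest 0.158, without SRC-3ff 72).

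H2-Q6 measured 236 and 251 FPKM in WT YFP+, 331 and 363 in KO YFP+, 386 and 425 in KO YFP-, against 282 and 218 in SRC-3ff. Its 2 controls overlapped below the knockout libraries. It was higher in KO YFP- than in WT YFP+ (log2 fold change 0.73 ± 0.14, limma adjusted p = 0.0218), a call lost without any 1 of the 4 libraries compared (highest 0.114) or without a filter, and in KO YFP+ the value was 0.51 ± 0.14 and did not pass (adjusted p = 0.267). H2-Q5, annotated as a polymorphic pseudogene, measured 71.6 and 65.7 FPKM in WT YFP+, 124 and 111 in KO YFP+, 126 and 356 in KO YFP-, against 76.4 and 64.7 in SRC-3ff. The value of KO YFP- 85 was far above that of KO YFP- 84. Without KO YFP- 84, which leaves KO YFP- 85 alone in its group and assumed to vary like the others, H2-Q5 was lower in KO YFP+ (log2 fold change -1.60, limma adjusted p = 0.00871), while with all libraries the value of -0.85 ± 0.42 did not pass (adjusted p = 0.337). H2-Q3, an unprocessed pseudogene, stayed between 1.41 and 2.44 FPKM and did not pass with limma in any of the 7 comparisons.

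Copies within the Q region share stretches of sequence, which limits single members. Of the 50-base windows of the longest annotated transcript, 40.1% in H2-Q5, 34.9% in H2-Q7, 32.0% in H2-Q6, 24.3% in H2-Q4 and 22.9% in H2-Q1 occurred exactly in a transcript of another gene, against 8.74% in H2-Q2 and 8.03% in H2-Q10. H2-Q7 shared most with H2-Q6 and H2-Q5, and H2-Q1 with H2-Q2. The limit is not confined to the Q region. The share was 28.8% in H2-T23, 16.5% in H2-K2, 14.3% in H2-D1 and 8.79% in H2-K1, and H2-D1 shared most with H2-Q1 and H2-Q7. Summed over its 8 members, the Q region gave 1009.7 and 987.3 FPKM in WT YFP+, 1377.8 and 1425.7 in KO YFP+, 1442.8 and 1623.7 in KO YFP-, against 1027.7 and 867.8 in SRC-3ff. The sums of the controls overlapped and lay below those of the knockout, which is the order of H2-Q7 and H2-Q6 and not that of H2-Q4, H2-Q1 and H2-Q2. In KO YFP+ against WT YFP+ the median log2 fold change of the 8 Q members was -0.28, while their summed level differed by 0.49. How reads of 129SvEv alleles were placed on a C57BL/6J reference was not tested.

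In the T region, H2-T3 and H2-Bl were the members highest in WT YFP+. H2-T3 (ENSMUSG00000054128, chromosome 17, 36185572 to 36190287), which encodes the thymus leukemia antigen, measured 5.73 and 5.68 FPKM in WT YFP+, 1.40 and 0.798 in KO YFP+, 0.813 and 0.859 in KO YFP-, against 0.656 and 0.699 in SRC-3ff. The other 6 libraries lay together at a low level, as for H2-Q2. Since the filter let H2-T3 in by its level in WT YFP+, its tests are given without a filter on low values as well. The log2 fold change between the controls was 2.00 ± 0.20 (limma adjusted p = 0.00223, and 0.0172 without a filter), and that of KO YFP- against WT YFP+ was -1.87 ± 0.20 (adjusted p = 0.00265 and 0.0232). That of KO YFP+ against WT YFP+ (-1.69 ± 0.20, limma adjusted p = 0.016) was lost without KO YFP+ 85 or either WT YFP+ library (highest 0.104) and in 3 other alternatives, among them without a filter (0.0821). Of its 50-base windows, 1.24% were shared with another gene.

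H2-Bl, a polymorphic pseudogene beside the T genes, measured 3.87 and 3.79 FPKM in WT YFP+, 1.65 and 1.80 in KO YFP+, 1.33 and 1.48 in KO YFP-, against 0.996 and 1.06 in SRC-3ff. The 4 groups did not overlap, with WT YFP+ the highest, SRC-3ff the lowest and both knockout sorts between. It was higher in WT YFP+ than in SRC-3ff (log2 fold change 1.25 ± 0.16, limma adjusted p = 0.00561), which held in each of the 15 alternatives in which it was tested. In KO YFP- it was lower than in WT YFP+ (-1.004 ± 0.16, limma adjusted p = 0.0124), a call lost without any 1 of the 4 libraries compared (highest 0.0692) and with only the 2 groups compared (0.0503).

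H2-T23, which encodes Qa-1, a ligand of the CD94/NKG2 receptors of NK and CD8 T cells, was low in WT YFP+. The 8 libraries gave 179 and 254 FPKM in WT YFP+, 409 and 402 in KO YFP+, 366 and 339 in KO YFP-, against 285 and 314 in SRC-3ff. Both WT YFP+ libraries lay below the other 6, and KO YFP+ was the highest group. The log2 fold change of WT YFP+ against SRC-3ff was -0.49 ± 0.16 and did not pass (limma adjusted p = 0.113). In KO YFP- against WT YFP+ the log2 fold change was 0.73 ± 0.16 (limma adjusted p = 0.038), a call that was lost in 10 of 16 alternatives, without WT YFP+ 23 and without either library of the other 3 groups among them (highest 0.167). The larger value of KO YFP+ against WT YFP+ (0.93 ± 0.16) did not pass (limma adjusted p = 0.0787), and it did without WT YFP+ 24 (0.0249).

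H2-T22 and H2-T10, which encode ligands of gamma delta T cell receptors, share 44.7% and 41.6% of their 50-base windows with other genes, for the most part with each other. In the table H2-T10 is annotated as a polymorphic pseudogene. H2-T22 measured 66.9 and 76.0 FPKM in WT YFP+, 110.5 and 109.6 in KO YFP+, 89.8 and 89.3 in KO YFP-, against 74.3 and 60.8 in SRC-3ff. KO YFP+ was the highest group, KO YFP- lay between, and the controls overlapped. H2-T22 was higher in KO YFP+ than in SRC-3ff (log2 fold change 0.70 ± 0.12, limma adjusted p = 0.017), a call lost without either KO YFP+ library or SRC-3ff 72 (highest 0.095), without a filter and with only the 2 groups compared. Its value against KO YFP- was 0.30 ± 0.12 (limma adjusted p = 0.236). H2-T10 measured 38.9 and 21.1 FPKM in WT YFP+, 31.3 and 30.5 in KO YFP+, 21.6 and 17.4 in KO YFP-, against 19.3 and 15.5 in SRC-3ff, and did not pass with limma in any of the 7 comparisons. For H2-T10 both KO YFP+ libraries lay above both KO YFP- libraries, and the WT YFP+ libraries lay above and below those of KO YFP+. Antisense genes overlap both, and these were at or under 0.342 FPKM in all libraries.

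H2-T24 measured 15.4 and 13.4 FPKM in WT YFP+, 15.8 and 11.3 in KO YFP+, 11.2 and 12.1 in KO YFP-, against 8.06 and 8.07 in SRC-3ff. Both SRC-3ff libraries were the lowest. It was higher in WT YFP+ than in SRC-3ff (log2 fold change 0.76 ± 0.17, limma adjusted p = 0.0375), a call that was lost in 9 of 16 alternatives, among them without either library of WT YFP+, KO YFP- or SRC-3ff (highest 0.172).

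Summed over the T region with H2-Bl, WT YFP+ gave 309.4 and 373.6 FPKM, KO YFP+ 569.4 and 556.0, KO YFP- 491.1 and 460.2, and SRC-3ff 388.1 and 400.4. The sum, which H2-T23 dominates, was lowest in WT YFP+. Between the controls the median of the 6 members was 0.73 on the log2 scale and the summed level differed by -0.21, so the sign depends on how members are combined.

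The M region was almost silent. Of its 14 members, H2-M3 alone was tested, and the other 13 never rose above 0.555 FPKM; H2-M10.5, H2-M10.6 and H2-M11 were listed at 0 in all 8 libraries. A 0 in the table can be a failed estimate, since the 13 mitochondrial coding genes were also listed at 0 throughout. H2-M3, which presents N-formylated peptides, measured 41.3 and 47.1 FPKM in WT YFP+, 45.8 and 51.3 in KO YFP+, 47.6 and 44.8 in KO YFP-, against 38.4 and 36.2 in SRC-3ff. SRC-3ff was the lowest group and the other 3 overlapped. The log2 fold change of KO YFP+ against SRC-3ff was 0.37 ± 0.11 and did not pass (limma adjusted p = 0.0728).

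H2-K2, a transcribed pseudogene beside H2-K1, measured 55.2 and 61.1 FPKM in WT YFP+, 37.2 and 55.4 in KO YFP+, 35.6 and 46.1 in KO YFP-, against 24.8 and 23.0 in SRC-3ff. SRC-3ff lay below all others, and KO YFP+ 85 reached the level of WT YFP+ 23. It was higher than in SRC-3ff in WT YFP+ (log2 fold change 1.25 ± 0.20, limma adjusted p = 0.0134) and in KO YFP+ (0.90 ± 0.20, adjusted p = 0.0381). The first call was lost without WT YFP+ 23, WT YFP+ 24 or SRC-3ff 72 (limma adjusted p up to 0.0874) and without a filter, and the second in 7 of 16 alternatives, among them without KO YFP+ 85 and without either SRC-3ff or WT YFP+ library (up to 0.185).

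Seen by strain label, 7 of the 23 tested members had both WT YFP+ libraries above all 6 others, namely H2-Q1, H2-Q2, H2-Q4, H2-Q10, H2-T3, H2-Bl and H2-D1, where 5.64% of all tested genes did. Leaving out H2-T3, which was tested because of its level in WT YFP+, there were 6 of 22. A further 3, H2-Q3, H2-Q7 and H2-T23, had both below all 6 others, where 7.44% of all tested genes did, and 13 overlapped. The group means of 10 members, H2-Q4, H2-Q1, H2-Q10, H2-Bl, H2-T3, H2-T24, H2-K2, H2-D1, B2m and Nlrc5, stood in the order of C57BL/6, both mixed groups and 129SvEv, as did 8.98% of all tested genes. The means of Tapbp stood in the reverse order, as did 10.3% of genes. In 9 members, H2-Q7, H2-Q6, H2-Q5, H2-Q3, H2-T22, H2-T23, H2-M3, H2-K1 and Tap1, both mixed groups had higher means than either control, as in 17.7% of genes. These orders are of means of 2 libraries and were not tested. Nnt, a gene with a known deletion in C57BL/6J, measured 17 and 16.7 FPKM in WT YFP+, below the other 6 libraries, and 24.5 and 25.2 in SRC-3ff. It passed between the controls (limma adjusted p = 0.0307), but not in KO YFP+ (0.609) or KO YFP- (0.21) against WT YFP+. The strain label names no substrain, and a value for the whole gene cannot show the loss of single exons. Ifi202b, the other strain gene listed, was at or under 0.245 FPKM in all libraries and did not separate the groups.

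The make-up of the class I signal followed these genes. The 31 heavy-chain members summed to between 8001 and 8887 FPKM in WT YFP+ and both knockout sorts, and to 6753 and 6324 in SRC-3ff. H2-D1 made up 52.5% and 55.2% of that sum in WT YFP+ and between 36.8% and 42.1% in the other 6 libraries. H2-K1 made up 30% and 28.3% in WT YFP+ and between 36.2% and 38.5% elsewhere. The Q region took 12.5% and 11.1% in WT YFP+, 13.7% and 15.2% in SRC-3ff and between 16.4% and 20.0% in the knockout libraries. The T region with H2-Bl took 3.83% and 4.2% in WT YFP+ and between 5.66% and 6.91% in the others.

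**Figure D5:**
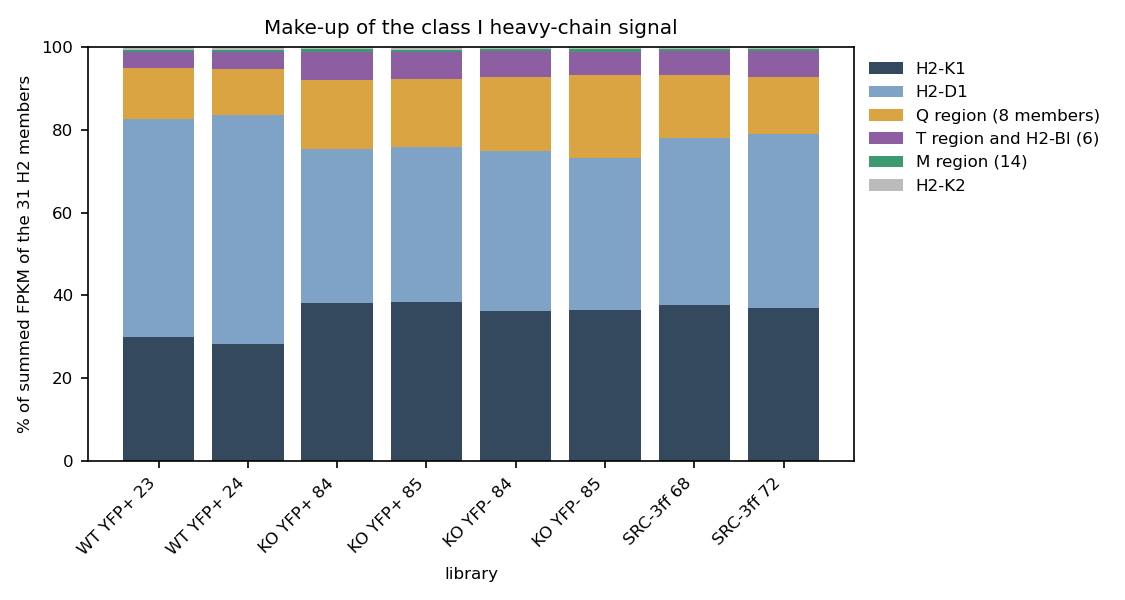
Share of the summed FPKM of the 31 H2 members (y axis, percent) taken by H2-K1, H2-D1, the Q, T and M regions and H2-K2 in each library. H2-D1 takes 52.5% and 55.2% in WT YFP+ and at most 42.1% elsewhere.

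Other genes of the pathway were counted in the same fits. Of 5 immunoproteasome and PA28 genes, which shape the peptides for class I, 3 were higher in KO YFP+ than in SRC-3ff, where 10.2% of all tested genes passed, and 2 were higher in WT YFP+ than in SRC-3ff, where 9.22% did. Psmb9, a catalytic subunit beside Tap1, measured 167 and 182 FPKM in WT YFP+, 190.6 and 182 in KO YFP+, 146 and 137 in KO YFP-, against 115 and 94.7 in SRC-3ff. Psmb8 and Psmb10, the other catalytic subunits, also passed in KO YFP+ against SRC-3ff (log2 fold change 0.54 and 0.65, limma adjusted p = 0.0148 and 0.0126). These 3 calls were lost without KO YFP+ 85 or SRC-3ff 72, and those of Psmb8 and Psmb9 without KO YFP+ 84 (highest 0.0969). The calls of Psmb8 and Psmb9 between the controls were lost without WT YFP+ 24 or SRC-3ff 72 (highest 0.111). Psmb9 overlaps 3.87% of the exonic bases of Tap1 on the other strand. Psmb5, the constitutive subunit that Psmb8 replaces, was higher in WT YFP+ than in SRC-3ff (0.78 ± 0.12, limma adjusted p = 0.00929), which held in every alternative run. Markers of B, plasma and NK cells moved with the same comparisons, and their part in these values was not tested.

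Of 6 peptide loading and trimming genes, Canx, the chaperone calnexin, and Hspa5, the chaperone BiP, were lower than in SRC-3ff in both YFP+ groups, and Tapbpl, the tapasin-related peptide editor, was higher in KO YFP+ than in SRC-3ff (log2 fold change 0.39 ± 0.08, limma adjusted p = 0.0342). Tapbpl was at a like level in KO YFP-, where the difference from SRC-3ff was 0.41 ± 0.08 and did not pass (adjusted p = 0.0862). Between the knockout sorts, Hspa5 was lower in the YFP+ one (log2 fold change -0.53 ± 0.11, limma adjusted p = 0.0421), and Calr and Hspa5 were higher in KO YFP- than in WT YFP+. Each of these calls was lost with at least 1 library left out. Of 14 tested regulators of class I transcription, 0 passed in KO YFP+ against WT YFP+ with limma, where 0.757% of all genes did, and 2 had an unadjusted p below 0.05, where 10.4% of all genes did. Irf1, a factor of the interferon response, was higher in KO YFP+ than in SRC-3ff (log2 fold change 0.69 ± 0.13, limma adjusted p = 0.0251), and Creb1, a factor that binds CRE sites, was lower (-0.99 ± 0.19, adjusted p = 0.0265). Both calls were lost without either KO YFP+ library, without SRC-3ff 72 and without a filter (highest 0.154). Ifngr2, a chain of the interferon gamma receptor, was lower than in WT YFP+ in KO YFP- (-0.92 ± 0.13, limma adjusted p = 0.00762), which held in every alternative run, and lower than in KO YFP+ (adjusted p = 0.0109), which was lost without either KO YFP+ library or KO YFP- 85 (highest 0.0799).

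Of 14 class I-like genes outside the MHC, 3 were tested, Cd1d1, Cd1d2 and Mr1, which present lipids and metabolites. Cd1d2 measured 2.67 and 2.59 FPKM in WT YFP+, 5.98 and 6.97 in KO YFP+, 5.20 and 5.53 in KO YFP-, against 4.18 and 3.79 in SRC-3ff. WT YFP+ lay below all others. The log2 fold change of KO YFP+ against WT YFP+ was 1.04 ± 0.15 (limma adjusted p = 0.0337), a call that held in 3 of 16 alternatives and was lost with each of the 8 libraries left out (highest 0.211).

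Libraries with the same number were set side by side as a description. Of the 23 tested members, 15 differed in the same direction between numbers 84 and 85 in both sorts, and 0 did so by at least 0.5 on the log2 scale in each. H2-Q5 and H2-Q10, high in KO YFP- 85, did not share this order in the YFP+ sort, where 84 exceeded 85.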

How the data were processed

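RNA of 8 libraries of mouse splenic Tregs (total RNA, SMART-Seq v4 libraries) was measured as gene-level FPKM. The deposited FPKM were made by the authors with Trim Galore, STAR and StringTie on mm10/GRCm38, per the submitters' processing notes; for versions, gene annotation and use of strand, nothing was stated in the labels or notes used. FPKM carry no counts, so the depth behind each value is unknown and no counting interval is given.

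Values were tested as log2(FPKM + 1) for the 14134 genes that reached 1 FPKM in 2 or more libraries, with limma 3.58.1 in R 4.3.3 (lmFit, contrasts, eBayes with a trend). All 8 libraries entered 1 fit with group as the only term and 4 residual degrees of freedom, and p-values were adjusted by the Benjamini-Hochberg method per comparison. The procedure was tested on simulated data. Alternatives were a pseudocount of 0.1, no filter, a minimum of 5 FPKM, 3 scalings, only the groups compared, a replicate block and each library left out. Where 1 library remained in a group, it was assumed to vary like the other groups.

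Members and gene lists were chosen with earlier results of these data known. Members that passed, the classical genes, the 5 partners and other members averaging at least 10 FPKM are named, with up to 4 passing pathway genes per list; others named were chosen after their values were seen. 1 pathway gene is not reported here. Coordinates are those of GENCODE M21 (GRCm38), which matched 55141 of the gene IDs and left 346 unmatched. Promoter sequences are from RefSeq (GRCm38.p6).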

Additional observations from a re-analysis of the deposited data

How the results depend on the processing

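Of 38 called member values, 14 held in every alternative and with each library left out, and 0 changed sign; without H2-T3 it was 11 of 34. Of 22 member values that did not pass and were recomputed, 10 passed in at least 1 alternative. Counts of members called moved as follows. Without a filter on low values they were 1 in KO YFP+ against WT YFP+ (from 5), 0 in KO YFP+ against SRC-3ff (from 6), and 5 in KO YFP- against WT YFP+, in WT YFP+ against SRC-3ff and in WT YFP+ against the mean of 3 groups (each from 9). With only the groups compared they were 1 in KO YFP+ against WT YFP+ and 0 in KO YFP+ against SRC-3ff; this was not run for the mean of 3 groups. With a library left out the counts ran from 2 to 5 in KO YFP+ against WT YFP+, 0 to 2 in KO YFP+ against KO YFP-, 0 to 7 in KO YFP+ against SRC-3ff, 5 to 7 in KO YFP- against WT YFP+, 0 to 2 in KO YFP- against SRC-3ff, and 5 to 9 in each comparison of WT YFP+ with SRC-3ff and with the mean. The cause was not tested. The replicate block on the numbers 84 and 85 gave 4, 0, 5, 9, 0, 10 and 10 members in the order of KO YFP+ against WT YFP+, KO YFP- and SRC-3ff, KO YFP- against WT YFP+ and SRC-3ff, and WT YFP+ against SRC-3ff and the mean. Over the tested genes, deviations of KO YFP+ 84 and KO YFP- 84 from their group means correlated at 0.137. With 2 libraries a group, the deviations of 85 mirror those of 84, so this value cannot show pairing. Counts over all genes also moved by over 1.5 times, in part in settings where the member counts did not. Without a filter they were 68 (from 107) in KO YFP+ against WT YFP+, 226 (from 693) against KO YFP- and 567 (from 1448) against SRC-3ff, 687 (from 1310) in KO YFP- against WT YFP+, 717 (from 1303) between the controls and 342 (from 844) against the mean. With only the groups compared they were 25, 537, 803 and 667 in KO YFP+ against WT YFP+ and SRC-3ff, KO YFP- against WT YFP+ and between the controls. In KO YFP- against SRC-3ff the 91 became 44 with a pseudocount of 0.1, 55 with a minimum of 5 FPKM, 39 with the block and 0 with only the groups compared. With a library left out the lowest counts in the 7 comparisons, in the order above, were 44, 140, 215, 597, 0, 400 and 224. Quantile normalization moved the median of all genes by 0.10 in KO YFP+ against KO YFP- and by -0.10 in KO YFP- against WT YFP+. The unknown depth limits what can be said of members near 1 FPKM.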
